A study of Mus musculus with 2 samples.

Results

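The cytosolic ribosomal protein genes of chimaeric mouse embryos were compared between cell types and between cells with and without a functional *Gata1* gene. Members were all genes of the spliced count table whose symbol is Rpl or Rps and a number, with at most a single letter a, l, x or y and digits after it. *Rpsa*, *Rplp0*, *Rplp1* and *Rplp2* were added, and S6 kinases and pseudogenes left out, which gave 83 of 29453 genes. Symbols with other endings, such as *Rpl36al*, are not members. The embryos came from C57BL/6 blastocysts of E3.5 injected with cells of 1 male embryonic stem cell clone, which derives from a ROSA26tdTomato by C57BL/6 cross and carries a frameshift of 38 bp in exon 4 of *Gata1*. At E8.5, 6 embryos were pooled, dissociated and sorted on tdTomato. The tdTom+ fraction held the *Gata1*- progeny of the clone and the tdTom- fraction the wildtype host cells, and each gave 1 droplet library of 3′ transcript ends. The age label of the tdTom- library reads E8.6, although both fractions came from the same pool. Of the host embryos no sex was stated in the sources used here. Since the clone, its sex and line of origin, the loss of *Gata1* and the library differ together between the fractions, their parts in a difference cannot be told apart, and no test between the fractions was possible.

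The ribosome joins a small subunit, which decodes the mRNA, to a large subunit, which forms the peptide bond, and each is built on ribosomal RNA. The mRNAs of ribosomal proteins are abundant in growing cells and mostly begin with a tract of pyrimidines, the TOP motif, through which their translation is controlled together. In humans, mutations in many of these genes cause Diamond-Blackfan anaemia, a failure of red cell precursors, and so do rare mutations of *GATA1*. Erythroid cells in the yolk sac fill with globin mRNA as they mature, so the share of any other group of transcripts has to be read beside that of globin.

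Promoter windows from RefSeq (GRCm38.p6) were listed for 64 of the 83 members, with 76 starts. A run of at least 8 pyrimidines that reached into the stretch from 10 bases before to 25 bases after the start was found in 38 of 76 member windows and in 18.0% of all 32851 windows. The letters CCGGAAG, the core bound by ETS factors, were found on either strand in 35.5% of member windows and 8.86% of all windows of 300 bases, and TCTCGCG in 19.7% and 2.56%. AAGATGG was found in 15.8% and 6.34%, and TATAAA in 10.5% and 13.6% on either strand. AAGATGG can overlap CCGGAAG by its letters AAG, and TCTCGCG can share its first letters with a pyrimidine run. The windows below, of 250 bases before and 30 bases after the listed start, belong to genes whose values stand apart in the comparisons that follow. *Rplp0* was the member with the largest difference between the fractions, *Rpl14* differed most between blood and endothelium within the tdTom+ library, *Rps28* led the short members and *Rps27l* is a divergent copy of *Rps27*. Capitals mark matches to these motifs and the pyrimidine run.
Rplp0 (chr5:115559217-115559496, plus strand): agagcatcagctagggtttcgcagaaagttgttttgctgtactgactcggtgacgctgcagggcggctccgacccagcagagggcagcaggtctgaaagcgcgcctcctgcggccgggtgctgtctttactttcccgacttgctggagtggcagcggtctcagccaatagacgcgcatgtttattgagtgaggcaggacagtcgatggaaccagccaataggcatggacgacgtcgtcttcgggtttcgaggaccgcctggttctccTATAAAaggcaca
Rpl14 (chr9:120571267-120571546, plus strand): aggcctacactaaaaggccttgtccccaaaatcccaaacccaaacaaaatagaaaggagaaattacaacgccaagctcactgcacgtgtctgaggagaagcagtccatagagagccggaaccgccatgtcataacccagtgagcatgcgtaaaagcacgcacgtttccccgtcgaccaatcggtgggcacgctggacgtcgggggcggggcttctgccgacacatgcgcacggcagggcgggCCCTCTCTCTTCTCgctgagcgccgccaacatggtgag
Rps28 (chr17:33824533-33824812, minus strand): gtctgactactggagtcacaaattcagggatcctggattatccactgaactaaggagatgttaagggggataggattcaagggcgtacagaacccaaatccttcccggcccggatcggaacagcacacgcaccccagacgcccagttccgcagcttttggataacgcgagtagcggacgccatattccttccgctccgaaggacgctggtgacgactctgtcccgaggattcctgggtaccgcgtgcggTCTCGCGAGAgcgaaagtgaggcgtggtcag
Rps27l (chr9:66945836-66946115, plus strand): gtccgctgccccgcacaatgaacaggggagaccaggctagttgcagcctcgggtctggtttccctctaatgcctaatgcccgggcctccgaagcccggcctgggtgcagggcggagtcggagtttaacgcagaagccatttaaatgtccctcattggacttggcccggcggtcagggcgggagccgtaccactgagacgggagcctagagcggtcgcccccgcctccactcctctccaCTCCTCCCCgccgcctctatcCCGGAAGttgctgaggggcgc
*Rpl14* has a pyrimidine run of 14 bases across its listed start, and *Rps27l* one of 9 bases just before it. In *Rplp0*, TATAAA stands downstream of the listed start, and in *Rps28* TCTCGCG is present on both strands. By GENCODE M21 on GRCm38, *Rplp0* spans chr5:115559467-115563727, *Rpl14* chr9:120571444-120574654, *Rps28* chr17:33819027-33824562 and *Rps27l* chr9:66946086-66949516, with 7, 6, 4 and 4 exons. A match in these letters is a description of the window and not of a bound site.

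The spliced tables held 167940767 UMIs in 8981 tdTom+ cells and 157174026 UMIs in 9252 tdTom- cells, and 18 barcode sequences occurred in both libraries. After doublets had been left out, 8582 tdTom+ and 8722 tdTom- cells fell into 39 clusters, which were formed without the members and, where markers allowed it, named from marker genes. Of these, 8 stayed unnamed, 5 of them among the 25 clusters compared outside blood. *Gata1* was counted at 30.8 CPM (95% Poisson interval 28.8 to 33.0) in tdTom+ blood progenitors and at 142 CPM (132 to 153) in host early erythroid-like cells. The 3′ tags lie outside the mutated part, so this level does not check the labels. Levels are given as CPM, the UMIs of a gene scaled to the spliced UMIs of its group, and intervals cover counting error only. Outside blood, globin transcripts made up 0.020% of spliced UMIs in tdTom+ and 0.098% in tdTom- cells, where they should be absent, and the part of such free RNA in the members' values was not tested. A UMI counts 1 molecule at its 3′ end whatever its length, but since the recovery of UMIs differed widely between members, levels are compared within a gene and not between genes.

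In these embryos 16.7% to 25.7% of all spliced UMIs came from the 83 genes, depending on the cluster. The lowest share, 16.7% (95% Clopper-Pearson interval 16.7 to 16.8), was found in 62 host visceral endoderm-like cells, led by the apolipoprotein gene *Apoa1*. Cardiomyocyte-like cells led by the sarcomere genes *Myl3* and *Actc1* followed, with 16.9% in the host and 17.9% in tdTom+ cells. Extraembryonic mesenchyme-like cells with *Postn* and *Col1a1* had 18.1% and 19.7%. Neural-like and neuromesodermal progenitor-like clusters lay higher, between 22.8% and 24.4%. The highest shares among clusters were those of tdTom+ blood progenitor-like cells, 25.7% (25.7 to 25.7) in the cluster led by *Myb* and *Spi1*. The cluster led by *Slc32a1* and *Car2* also had 25.7%, with an overlapping interval. This order depends on what is counted. Without globin and mitochondrial genes in the total, host erythroid-like cells ranked first with 26.8%. With unspliced UMIs added, the tdTom+ cluster led by *Slc32a1* and *Car2* ranked first with 23.4%, and the lowest share was that of host cardiomyocyte-like cells, 14.96%. Primordial germ cell-like host cells had 21.5%, at only 1326 spliced UMIs per cell.

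**Figure D1:**
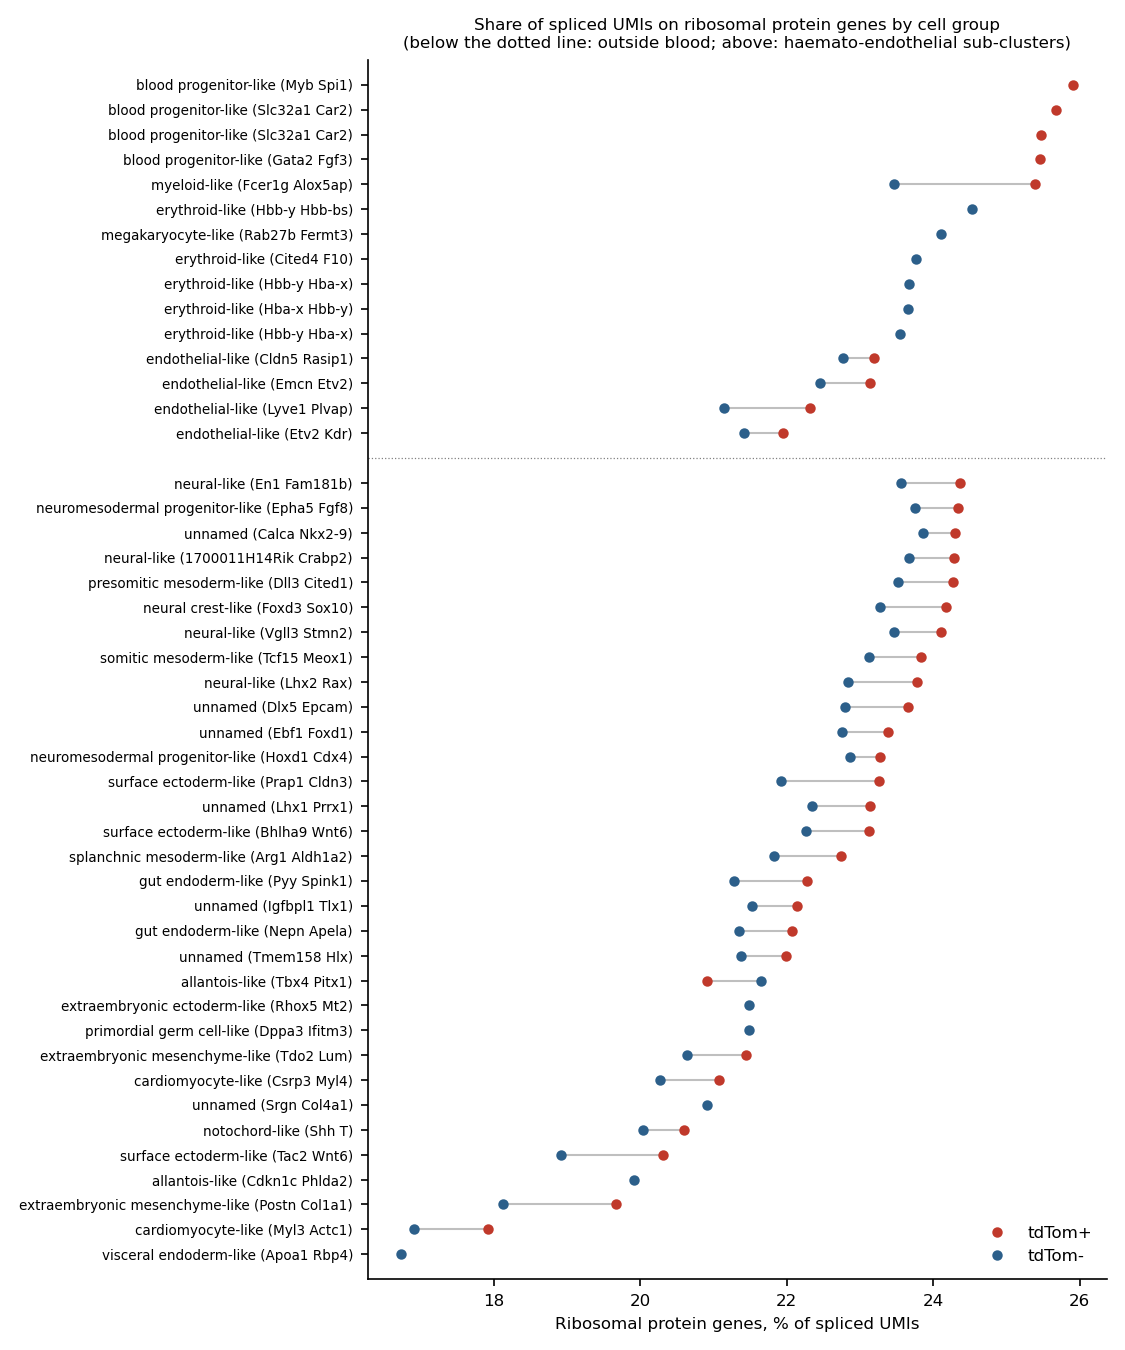
Each point is the percent of spliced UMIs (x axis) that came from the 83 ribosomal protein genes in 1 fraction of a cluster or haemato-endothelial sub-cluster (y axis, with its class and first leading genes), for tdTom+ cells in red and tdTom- cells in blue, where at least 20 cells were present. Blood progenitor-like tdTom+ groups lie at 25.5% to 25.9% at the right end, visceral endoderm-like cells lie at 16.7% at the left end, and red lies to the right of blue in all shown pairs but the allantois-like cluster with *Tbx4*, which holds 82 of 354 allantois-like host cells.

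Between single cells the share had quartiles of 22.8% and 24.5% in host early erythroid-like cells, and of 24.7% and 26.7% in the tdTom+ blood progenitors matched to them. They lay wider apart in some other groups, at 16.0% and 19.4% in tdTom+ cardiomyocyte-like cells with *Myl3* and at 17.9% and 22.6% in the shallow primordial germ cell-like cells. The members also varied together between clusters. Over 63 points, each a fraction of a cluster with at least 50 cells, the level of a member had a median Pearson correlation of 0.84 with the summed level of the others, and 72 of 83 members exceeded 0.7. Points of 1 library share its depth, and the correlation is a description. *Rps12* (r = 0.96), *Rps9* (0.94) and *Rps18* (0.93), which belong to the small subunit, followed the others most closely. The least alike were *Rpl3l* (-0.23), *Rpl39l* (0.06) and *Rpl10l* (0.16), which were almost absent, and *Rplp0* (0.30) and *Rpl21* (0.30), which differed between the libraries. Between the lowest and the highest point a member changed 1.66-fold in the median over the 80 members tested outside blood, from 1.41-fold for *Rpl15* to 2.78-fold for *Rplp0*. These folds were the same to 3 digits without the primordial germ cell-like cells, in which some members had under 100 UMIs.

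The first comparison asked how the genes behave as host erythroid cells mature. Host erythroid-like sub-clusters of at least 50 cells were ordered by their globin share, from 5.10% in 264 early cells, which were led by *Cited4* and *F10*, through 10.3% and 11.3% to 11.6% in 436 late cells. In these groups the ribosomal protein share was 23.8% in early cells, 23.7% in both intermediate groups and 23.5% in late cells. A further host sub-cluster of 39 erythroid-like cells, too few to enter the order, had the highest globin share, 15.2%, and a ribosomal protein share of 24.5% (24.4 to 24.6), above that of early cells. The summed level in late over early cells therefore differed by a log2 fold of -0.013 (-0.017 to -0.010). When globin and mitochondrial genes were left out of the total, the share was 25.3% in early and 27.0% in late cells and the log2 fold was 0.090 (0.087 to 0.094), so the direction rested on the denominator. With unspliced UMIs added to members and total alike, the fold was 0.0020 (-0.0011 to 0.0052), which shows no direction. With doublets kept it was -1.9e-05 (-0.0038 to 0.0037), again without direction, and at resolution 2 for the blood cells it was -0.032.

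A gene was counted as past a bound when it was at least 25% higher or 20% lower, a log2 fold of 0.322 either way. None of the 80 members with at least 100 UMIs over both groups passed it in either direction, against 5.26% of all 6508 genes higher and 26.2% lower. Many of those genes have fewer UMIs than the members, so these shares are not set at like levels. At resolution 2, 1 member passed it downwards. Their median log2 fold was -0.02, and 20 were above and 60 below 0. The median of all genes was -0.17, and 23.9% of them were above 0. The share of members above 0 was thus close to that of all genes, while their median lay nearer 0. The lowest value was that of *Rpl7l1*, a copy of *Rpl7* that acts in making the large subunit, with 276 CPM (261 to 290) in early and 224 CPM (215 to 234) in late cells, a log2 fold of -0.30. Next were *Rps27l*, a copy of *Rps27* known as a p53 target, with 1183 CPM in early and 1027 CPM in late cells (log2 fold -0.20), *Rpl13a* (-0.17), *Rps29* (-0.11) and *Rpl24* (-0.11). Values were highest for *Rpl10a* (0.11), *Rpsa* (0.09), *Rpl3* (0.09), *Rpl27a* (0.08) and *Rpl23a* (0.07). *Rpsa*, the laminin receptor homologue of the small subunit, had 4359 CPM in early and 4653 CPM in late cells. Both subunits had like medians, of -0.02 for 32 small-subunit and -0.03 for 48 large-subunit members.

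Genes that build and use ribosomes were measured beside the ribosomal proteins. Of 28 ribosome biogenesis genes, 3 passed the bound downwards and none upwards, a smaller share than the 26.2% of all genes lower, with a median of -0.18 against -0.17 for all genes. The lowest was *Tsr2*, the chaperone of Rps26, with 48.0 CPM in early and 32.5 CPM in late cells (-0.56), and the highest *Gnl3* (0.06). The nucleolar genes *Npm1* and *Ncl* both had a log2 fold of -0.27. Translation factors had a median of -0.12 over 15 genes, from *Eif4ebp1* (-0.31) to *Eef1a1* (0.14), and none passed the fold. Non-member ribosome genes (4 tested, from *Fau* at -0.11 to *Rpl36al* at 0.08) and ribosome rescue genes (6 tested, from *Ltn1* at -0.26 to *Mcts1* at 0.21) held none that passed. Among 7 p53 targets tested 4 were lower, with *Cdkn1a* lowest at -0.90 (70 UMIs in late and 71 in early cells) and *Aen* highest at 0.12. The 17 members of the Diamond-Blackfan list had a median of -0.04 with none past the bound, and *Rps19* was at -0.09, *Rpl5* at -0.04 and *Rpl11* at -0.02.

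The second comparison set *Gata1*- cells against the host at the nearest erythroid stage. By majority among the 15 closest host cells, 1231 of 1622 tdTom+ blood cells were matched to the early erythroid-like host cells. Of these, 1230 belonged to sub-clusters named blood progenitor-like, so the compared cells carry different names and different globin shares, 1.94% in tdTom+ and 5.10% in host cells. Among the blood progenitor-like sub-clusters, those of 486 and 262 tdTom+ cells raised 4 erythroid and 4 blood progenitor markers alike. The leading genes decided their name. The ribosomal protein share was 25.7% after matching in tdTom+ cells and 23.8% in the host, a log2 fold of 0.112 (0.109 to 0.115). The fold was 0.064 without globin and mitochondrial genes in the total, and 0.055 when called doublets were kept and cells clustered again. In 93 tdTom+ cells matched to 61 megakaryocyte-like host cells the shares were 25.7% and 24.1% (log2 fold 0.092), and in myeloid-like cells they were 25.4% in 210 tdTom+ and 23.5% in 29 host cells (0.11).

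A difference in the same direction was present outside blood. Over 25 clusters that held at least 50 cells of each fraction and no blood or endothelium, with 6341 tdTom+ and 6294 tdTom- cells, the summed level was higher in tdTom+ cells in 24, with a median log2 fold of 0.050 and a range of -0.049 to 0.12. The exception was the allantois-like cluster led by *Tbx4*, at 20.9% in 659 tdTom+ and 21.6% in 82 tdTom- cells. Most allantois-like host cells, 272, formed another cluster without tdTom+ cells, at 19.9%, and with both clusters pooled the host share was 20.3%, below that of tdTom+ cells (log2 fold 0.042). The 4 endothelial-like sub-clusters were higher in tdTom+ cells too, by 0.027 to 0.078. Less the median outside blood, the fold of the matched blood cells was 0.062 in the main setting. The folds in matched cells and outside blood lay closer together in some other settings. They were 0.064 and 0.048 without globin and mitochondrial genes in the total, and 0.055 and 0.051 with doublets kept. With unspliced UMIs added they stayed farther apart, at 0.108 and 0.058. At resolution 2 and with cosine distance in the matching, which leave the clusters outside blood unchanged, the fold in matched cells was 0.111 and 0.107. The tdTom+ library was also deeper, with more spliced UMIs per cell in 23 of the 25 clusters. Thinned at random to 5000 UMIs per cell, the matched blood cells gave a fold of 0.11. Such thinning leaves the expected share of a cell unchanged, so the part of depth in the fold was not tested.

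The members did not move by the same amount outside blood, and their folds followed the length of the protein. Coding length, taken from GENCODE M21, ran from 75 bases for *Rpl41* to 1257 bases for *Rpl4*. All 27 tested members under 400 coding bases had a median log2 fold over clusters above 0, and 24 of them were higher in tdTom+ cells in every one of the 25 clusters. Their median was 0.24. Of the 53 longer members, 31 were above and 22 below 0, with a median of 0.02. Over the 80 members the Spearman correlation of the fold with coding length was -0.86, and within single clusters it lay between -0.87 and -0.76. With annotated transcript length it was -0.54. Among all other genes tested the correlation was -0.10 (9210 genes). The 54 other genes under 400 coding bases with at least 400 CPM in tdTom- cells had a median of 0.06, and the 264 longer ones of the same level 0.0012. The bounds of 400 bases and 400 CPM were chosen after the values had been seen. Over the 80 members, the correlation of fold and coding length was -0.73 in the matched blood cells and 0.26 in late over early host cells. For blood over endothelial-like cells of the same library, compared below, it was -0.11 in tdTom+ and -0.20 in tdTom- cells. The members share their libraries and base composition was not examined, so these are descriptions.

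**Figure D2:**
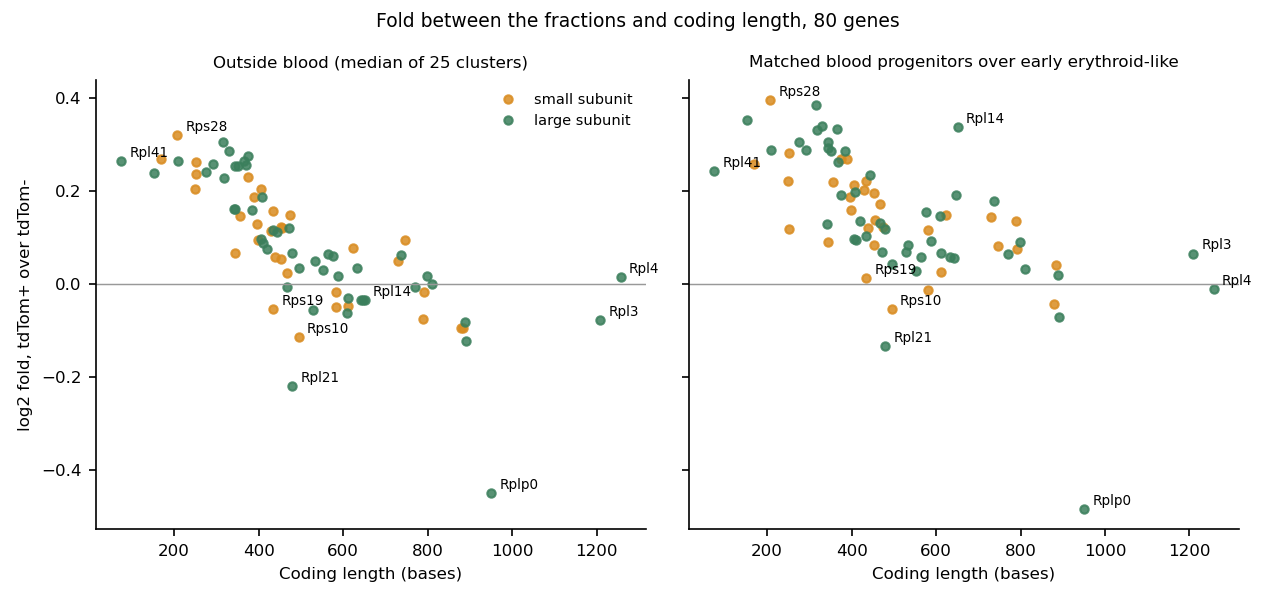
Each point is 1 of 80 ribosomal protein genes, with its coding length in bases (x axis) and its log2 fold of tdTom+ over tdTom- cells (y axis), as the median of 25 clusters outside blood (left) or in matched blood cells (right), for the small subunit in orange and the large subunit in green. Members under 400 bases lie above 0 in both panels, *Rplp0* lies apart at -0.45 and -0.48, and *Rpl14* stands above genes of its length only in the right panel.

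Among the short members, *Rps28* had the highest fold outside blood, at 770 CPM in tdTom+ against 634 CPM in tdTom- cells over these clusters and a median log2 fold of 0.320 (range over clusters 0.22 to 0.48), just inside the bound. *Rpl36* (0.31), *Rpl35a* (0.29), *Rpl31* (0.27) and *Rps29* (0.27) followed, all of them higher in 25 of 25 clusters. At the other end stood *Rplp0*, the stalk protein on which the P1 and P2 proteins assemble. Its level was 4701 CPM in tdTom+ against 6595 CPM in tdTom- cells, lower in 25 of 25 clusters, with a median of -0.45 and a range of -0.60 to -0.37. It was the only member past the bound outside blood, against 4.79% of 9452 genes lower and 1.40% higher. Centred on the median of all genes, 3 members were past it upwards and 1 downwards, and with doublets kept 1 each way. *Rpl21* (-0.22), *Rps10* (-0.11) and *Rpsa* (-0.10) were among 7 longer members with lower values in every one of these clusters, and *Rpl5* (-0.12) had lower values in 24. The stalk partners *Rplp1* (0.16) and *Rplp2* (0.25) went the other way from *Rplp0* in all 25.

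In the matched blood cells, 7 of 80 members passed the bound upwards and 1 downwards, against 24.4% of 8276 genes higher and 11.8% lower, a smaller share than among all genes in both directions. Many of those genes have fewer UMIs than the members and folds that vary more by counting, so the shares are not set at like levels. The median log2 fold was 0.13 for the members and 0.07 for all genes. *Rps28* had 889 CPM (878 to 900) in tdTom+ and 676 CPM (654 to 699) in host cells (log2 fold 0.40). *Rpl36*, with 1682 and 1288 CPM, gave 0.38, *Rpl39*, with 1400 and 1097 CPM, gave 0.35, and *Rpl35a*, with 2193 and 1733 CPM, gave 0.34. *Rpl14* (0.34), *Rpl22l1* (0.33) and *Rpl36a* (0.33) complete the 7. *Rplp0* was lower, with 6300 CPM (6270 to 6329) in tdTom+ and 8807 CPM (8726 to 8888) in host cells (-0.48). The next lowest were *Rpl21* (-0.13), *Rpl5* (-0.07), *Rps10* (-0.05) and *Rps2* (-0.04). Of the 7 members past the bound upwards, all but *Rpl14* were also higher in 25 of 25 clusters outside blood. Centred on the median of all genes only *Rplp0* was left past the bound. Without globin and mitochondrial genes in the total 2 members were past it upwards and 1 downwards, with doublets kept 4 and 1, and at 1.5-fold none.

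**Figure D3:**
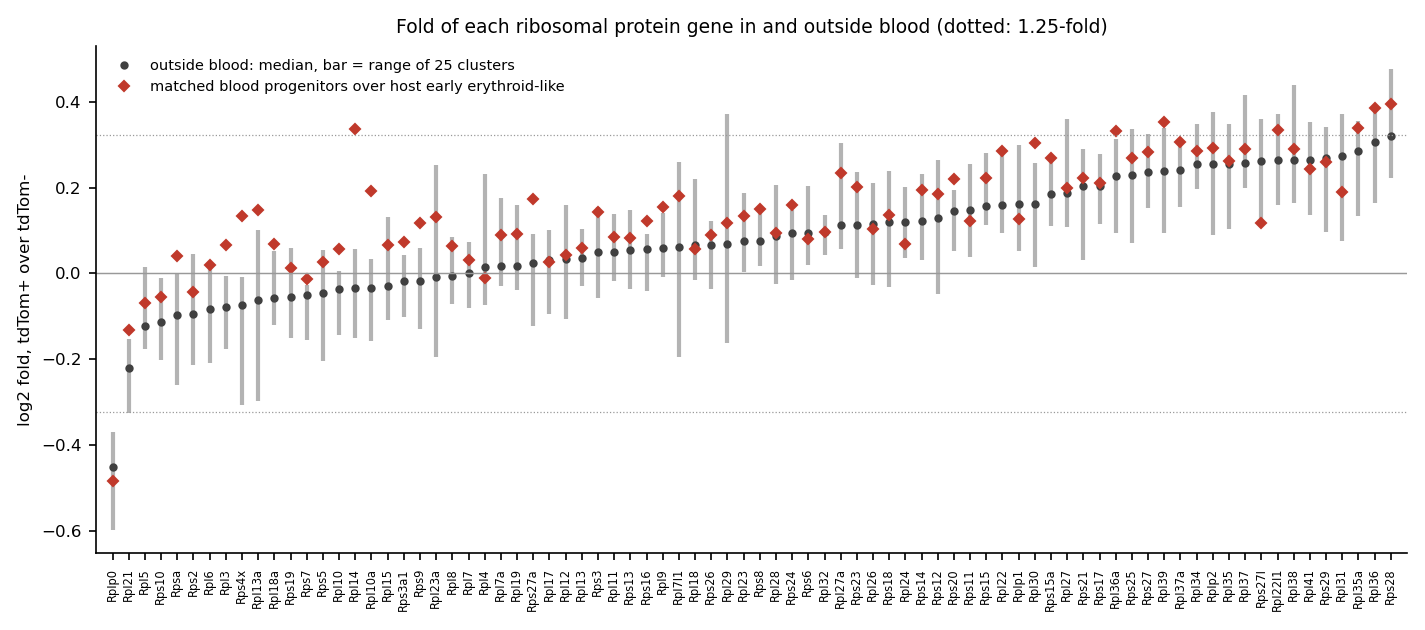
For each of 80 ribosomal protein genes (x axis, ordered by the fold outside blood) the log2 fold of tdTom+ over tdTom- cells (y axis) is drawn for 25 clusters outside blood, as the median (black point) and range (grey bar), and for matched blood cells over host early erythroid-like cells (red diamond). Diamonds lie above the black point for 66 genes and below it for 14, with a median difference of 0.062. That of *Rpl14*, at 0.34 against a bar of -0.15 to 0.06, lies farthest above its median.

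*Rpl14*, a protein of the large subunit, was the 1 member past the bound once the median outside blood had been taken off, at 0.37, followed by *Rpl10a* (0.23) and *Rps4x* (0.21). Its level was 6238 CPM (6208 to 6267) in matched tdTom+ cells, 4936 CPM (4876 to 4997) in host early and 4821 CPM (4777 to 4866) in host late erythroid-like cells. In endothelial-like cells it was 3513 CPM in the tdTom+ and 3583 CPM in the tdTom- library, and outside blood 3619 and 3817 CPM. Outside blood the median log2 fold of *Rpl14* over the 25 clusters was -0.03, and its levels in blood were higher than in these tissues in both fractions.

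To set blood against a related tissue without crossing libraries, blood cells were compared with endothelial-like cells of their own library (510 tdTom+, 372 tdTom-), a comparison added after the values above were known. The summed share was 22.5% in endothelium and 25.7% in matched blood cells of the tdTom+ library (log2 fold 0.19), and 21.8% and 23.8% in endothelium and early erythroid-like cells of the host (0.125). Without globin and mitochondrial genes in the total, the shares were 22.7% and 26.5% in the tdTom+ library and 22.0% and 25.3% in the host. The counts and folds that follow are on the full total. All 80 members were above 0 in tdTom+ and 73 in tdTom- cells, against 43.1% and 38.7% of all genes. Past the bound upwards were 8 members in tdTom+ cells, against 24.2% of 9135 genes, and 6 in host cells, against 20.8% of 7200 genes, and none was past it downwards, against 39.7% and 44.6%. In both libraries 5 were past the bound, which were *Rpl14* (0.83 in tdTom+ and 0.46 in tdTom- cells), *Rpl13a* (0.62 and 0.45), *Rps27l* (0.58 and 0.63), *Rpl31* (0.46 and 0.48) and *Rplp1* (0.40 and 0.46). The others lay on either side of the bound, *Rpl7l1* (0.37 in tdTom+ and 0.23 in tdTom- cells), *Rpl30* (0.36 and 0.20), *Rps12* (0.35 and 0.31) and *Rplp0* (0.31 and 0.34), and their differences between the libraries were not tested. *Rplp0* thus differed between blood and endothelium by like amounts in both libraries while its level differed between the libraries in both tissues. *Rps4x*, X-linked like *Rpl10*, *Rpl36a* and *Rpl39*, had 0.09 in tdTom+ and -0.14 in tdTom- cells, and *Rpsa* had 0.02 and -0.11. Globin made up 1.94% of spliced UMIs in matched tdTom+ and 5.10% in host early cells, against 0.020% and 0.15% in endothelial-like cells. Leaving globin and mitochondrial genes out of the total raises the folds of all members of a library by the same amount, set by the summed shares above. The signs of *Rps4x* and *Rpsa* stay the same under that shift, with the host values nearer 0. The sizes of the folds thus rest on the total, and the counts of members were not recomputed.

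**Figure D4:**
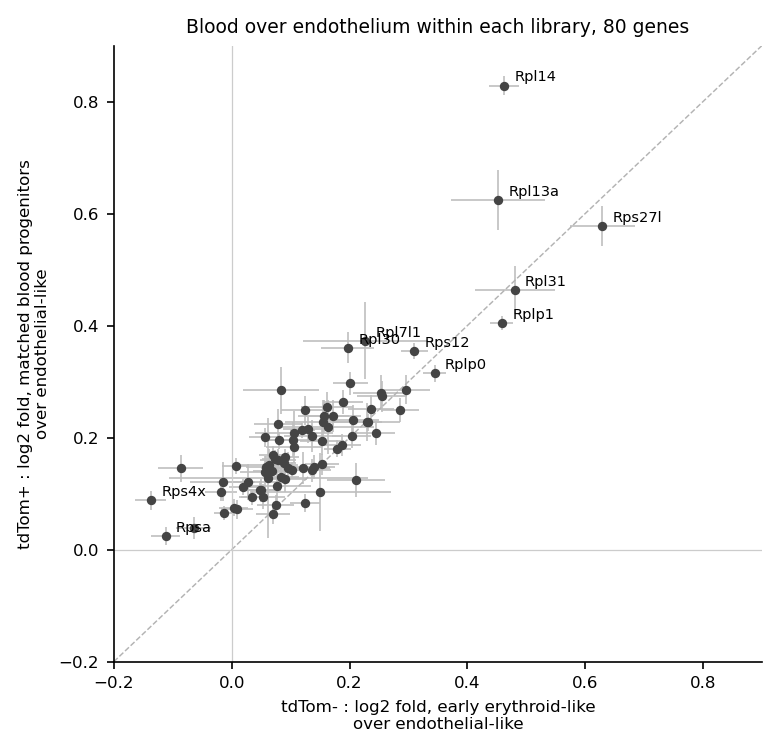
Each point is 1 of 80 ribosomal protein genes, with its log2 fold of blood over endothelial-like cells in the tdTom- library (x axis) and in the tdTom+ library (y axis), 95% counting intervals as bars and equality as a dashed line. *Rpl14* lies highest, at 0.83 in tdTom+ and 0.46 in tdTom- cells, and *Rps27l* lies farthest right at 0.63.

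The divergent copies of ribosomal protein genes were measured beside their main genes. *Rpl22l1* was at 1515 CPM in matched tdTom+ against 1202 CPM in host early cells, and its main gene *Rpl22*, whose protein binds RNA and represses its copy, 2086 and 1711 CPM (log2 fold 0.29). *Rpl39* and *Rpl36a* (0.35 and 0.33) were past the bound as well. *Rps27* was at 0.28 in blood and 0.24 outside it, and *Rps27l* at 0.12 and 0.26, none of them past the bound. *Rpl7* had a log2 fold of 0.03 and *Rpl7l1* of 0.18, and *Rpl3* (0.07), *Rpl10* (0.06) and *Rps4x* (0.13) lay near 0. Across fractions of a cluster with at least 50 cells *Rps27l* varied more than *Rps27*, from 578 CPM in host cardiomyocyte-like cells to 1296 CPM in tdTom+ blood progenitor-like cells. The copies known from testis and muscle were hardly counted. *Rpl10l* had 3 and *Rpl3l* 10 spliced UMIs in all kept cells, of which 3 *Rpl3l* UMIs came from the cardiomyocyte-like cluster with *Myl3*. *Rpl39l* had 180. Among fractions of a cluster with at least 50 cells its highest level was 4.76 CPM (2.54 to 8.14) in host endothelial-like cells with *Lyve1*. It had 0 UMIs in late erythroid-like cells, where counting allows up to 0.39 CPM.

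The other lists were read against the same 24.4% of all genes higher and 11.8% lower. Of 28 ribosome biogenesis genes none passed the bound, with a median of 0.0057, from *Rrp9* (-0.30) to *Ubtf* (0.31), the activator of rDNA transcription. Translation factors had a median of 0.05, from *Tpt1* (-0.15) to *Pabpc1* (0.30), also with none of 15 past the bound. In the mitochondrial ribosome 1 of 75 proteins was higher and 2 lower, with a median of -0.0070. Of 8 p53 targets tested 4 were higher, among them *Sesn2* (0.98, from 304 and 29 UMIs) and *Bbc3* (0.84, from 563 and 59 UMIs), while *Mdm2* was at -0.20. Outside blood, 3 of 10 p53 targets were higher and 2 lower, against 1.40% and 4.79% of all genes. These medians hide wide ranges over clusters, as for *Cdkn1a*, with a median of 0.91 and a range of -1.33 to 4.87. The ranges of *Ccng1*, *Phlda3* and *Bbc3* spanned 0 too, while that of *Zmat3* lay below it (-1.51 to -0.40). Ribosome rescue genes had 1 of 6 higher, *Mcts1*, a factor that recycles the small subunit, with 76.7 and 53 CPM (0.53), while *Abce1* was at -0.25. The non-member ribosome genes ran from *Rack1* (-0.07) to *Fau* (0.17). In the Diamond-Blackfan list 2 of 17 were higher, with a median of 0.10 in blood and 0.09 outside it, and *Rps19* had 1414 and 1401 CPM (0.01), *Rpl5* -0.07 and *Rpl11* 0.08.

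The unspliced layer held 2.34% of the members' UMIs in all kept cells, against 13.2% for all genes. This share was 2.29% in host early and 2.12% in late erythroid-like cells, and 2.29% in matched tdTom+ cells. The share over all genes was 10.8%, 9.71% and 11.1% in the same groups, so it too was lower in late than in early cells. The 5 genes with the most unspliced UMIs, *Rps21*, *Rpl29*, *Rps3*, *Rpl13a* and *Rpl38*, gave 74.3% of the members' unspliced UMIs, and the other 78 members had an unspliced share of 0.620%. In host early, host late and matched tdTom+ cells the share of these 78 was 0.644%, 0.506% and 0.633%. From early to late cells it fell more, in proportion, than the share of all members or of all genes. *Rpl29* was 92.2% unspliced, *Rpl38* 53%, *Rps21* 50.8% and *Rps3* 46.8%, and *Rpl3l* 84.1% of 63 UMIs. *Rpl13a* followed with 42.9%, and the next was *Rpl7l1* with 6.29%. Among members with at least 100 UMIs the lowest shares were those of *Rplp1* (0.043%), *Rps4x* (0.045%), *Rplp0* (0.082%), *Rpl32* (0.086%) and *Rps12* (0.10%).

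Both layers together also held less of the members than the authors' gene counts did. Spliced and unspliced UMIs added to 68.5% of the Cell Ranger UMIs of the members and to 91.3% of those of other genes. The members made up 25.5% of Cell Ranger UMIs and 20.4% of both layers. Adding unspliced UMIs, 2.34% of the members' and 13.2% of all UMIs, itself lowers their share. Of spliced UMIs alone they made up 23.4% in tdTom+ and 22.5% in tdTom- kept cells. The sum can exceed the Cell Ranger count, so recovery here does not follow the same molecules. Between members this recovery ran from 18.0% for *Rpl27a*, 21.8% for *Rps29*, 22.3% for *Rpl38*, 27.2% for *Rps10*, 27.4% for *Rpl6* and 28.6% for *Rps19* to 124% for *Rpl13a*. Fewer than 50% were recovered for 23 of 81 members. Molecules that fit both spliced and unspliced transcripts enter neither layer. The overlap of the last 300 exon bases with introns of other GENCODE transcripts had a Spearman correlation of -0.14 with recovery over these members. Recovery had one of -0.16 with the fold outside blood. Many members have processed pseudogenes of near-identical sequence, and reads that fit several places may go uncounted, so their levels are uncertain. Columns named as such pseudogenes, 13 in all, held 6432 spliced UMIs, 0.0086% of those of the members, and 70465 Cell Ranger UMIs, 0.063% of those of the members. The largest difference was that of *Rpl23a-ps3*, with 892 spliced and 24806 Cell Ranger UMIs.

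**Figure D5:**
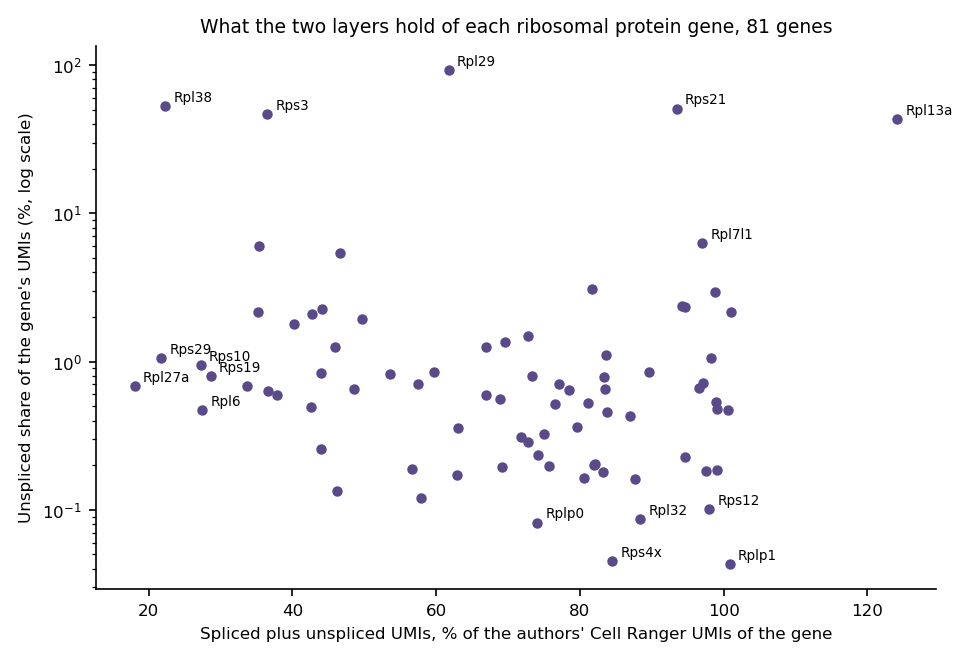
For 81 ribosomal protein genes with at least 100 UMIs, the sum of spliced and unspliced UMIs as a percent of the authors' Cell Ranger UMIs (x axis) is drawn against the unspliced percent of that sum (y axis, log scale), each point being 1 gene over both libraries. *Rpl29*, *Rpl38*, *Rps21*, *Rps3* and *Rpl13a* lie above 40% on the y axis, and recovery runs from 18.0% (*Rpl27a*) to 124% (*Rpl13a*).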

How the data were processed

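Reads had been aligned by the authors to mm10 (GRCm38) in Cell Ranger 3.0.2 and cells called by emptyDrops with cuts on depth and mitochondrial share. The authors deposited raw spliced and unspliced UMI counts from velocyto, with counts per gene and the mitochondrial percent of each cell from Cell Ranger. No value was other than a whole number at or above 0.

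Doublets were called with Scrublet (377 tdTom+, 518 tdTom- cells) and left out with a cluster of over 50% called cells. Cells were clustered with scanpy 1.11.5 and leidenalg 0.10.2 (50 components, 20 neighbours, resolution 1.5), and 3984 haemato-endothelial cells again (30 components, 15 neighbours, resolution 1). In both steps 996 genes were left out, members and companion lists included. Names need at least 3 markers raised 2-fold. UMIs were summed per group. Folds have exact conditional 95% intervals, tested on simulated data, and a gene was called when at least 25% higher or 20% lower with at least 100 UMIs (outside blood also counted in every cluster and fraction). Cells of 1 library are not replicates, so no p-value is given. Named genes are the paralogs with their main copies, the 5 members per direction with the largest fold of each comparison, those with the 5 highest and lowest unspliced shares, the 5 least and 3 most correlated with the other members, *Rps19*, *Rpl5* and *Rpl11*, and up to 4 examples per list. Others were named after their values were seen. The members and lists were chosen with earlier results of these data known. Alternatives covered denominators, layers, thinning, doublets, resolution, matching, the fold, centring and the UMI minimum. Taking off the median fold outside blood, pooling the allantois-like clusters, leaving out the primordial germ cell-like cells and rescaling the 3 members of opposite sign were added after seeing the data.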

Additional observations from a re-analysis of the deposited data

Results flagged for a closer look

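*Rpl3*, *Rpsa* and *Rps4x* had folds of opposite sign between the fractions in blood and outside it. In matched tdTom+ cells over host early erythroid-like cells the log2 fold was 0.066 for *Rpl3*, 0.040 for *Rpsa* and 0.13 for *Rps4x*, while each was lower in tdTom+ cells in all 25 clusters outside blood, with medians of -0.08, -0.10 and -0.07. The sign in blood depends on the scaling. Without globin and mitochondrial genes in the total the folds in blood were 0.017, -0.0086 and 0.086, and centred on the median of all genes they were -0.0080, -0.034 and 0.061, so that *Rps4x* alone kept its sign under both. With 1 library per fraction these differences were not tested, and none of the folds in blood was at least 25% higher.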

How the results depend on the processing

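No paired analysis was possible because each fraction has 1 library. On recomputing, 23 values stayed within the counting interval or 1.5 times the count, and the others are given here. Intervals are narrow at this depth and hold no variation between embryos, so moved values can be close. The summed fold of late over early erythroid-like cells reversed to 0.090 without globin and mitochondrial genes. It was 0.0020 with unspliced UMIs added, with an interval of -0.0011 to 0.0052 that spans 0, -1.9e-05 with doublets kept and -0.032 at resolution 2, where 1 member passed the fold bound. The fold of matched cells was 0.064 without globin and mitochondrial genes, 0.055 with doublets kept, 0.107 with cosine distance and 0.108 with unspliced UMIs added. Less the median outside blood it was 0.062, a value computed for the main setting alone. The count of members past the fold in matched cells, 8 as reported, was 5 with doublets kept, 3 without globin and mitochondrial genes, 0 at 1.5-fold, 1 when centred on all genes and 1 less the median outside blood. Outside blood it was 2 with doublets kept, 0 at 1.5-fold and 4 when centred, and the summed fold was 0.058 with unspliced UMIs added. The highest and lowest cluster shares were 26.8% and 16.98% without globin and mitochondrial genes, when host erythroid-like cells ranked first, and 23.4% and 14.96% with unspliced UMIs added, when host cardiomyocyte-like cells ranked last, and the highest was 25.7% with doublets kept. The unspliced share differed between late and early cells by -0.17 percentage points as reported and by -0.23 at resolution 2, and between matched and host cells by -0.0017 and, with doublets kept, 0.051.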

Other observations

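The mitochondrial ribosome and the machinery of ribosome assembly were set against endothelium in the same way as the cytosolic ribosome. Of 75 mitochondrial ribosomal protein genes tested in tdTom+ cells, 48 were at least 25% higher in matched blood cells than in endothelial-like cells and 5 at least 20% lower, with a median log2 fold of 0.42, against 24.2% of all genes higher and 39.7% lower. In host early erythroid-like cells the counts were 49 and 7 of 74, with a median of 0.44, against 20.8% and 44.6%. All genes tested had medians of -0.12 and -0.21. Ribosome biogenesis genes were higher in 10 and lower in 1 of 28 in tdTom+ cells, with a median of 0.26, and higher in 13 of 28 in host cells, with a median of 0.31. The cytosolic members had medians of 0.17 and 0.11. The lists differ in level and length, and the difference between them was not tested.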
